A study of Mus musculus with 18 samples.

Results

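The genes followed here build the calcium store of skeletal muscle and the junction that empties it: Casq1, Casq2, Ryr1, Atp2a1, Atp2a2, Cacna1s, Cacng1, Trdn, Jph1 and Jph2. Every array probe whose annotated gene symbol was one of these 10 was taken, which gave 19 of the 45281 probes and 9 of the 19057 genes on the array. Cacna1s had no probe under its symbol and was not analysed here. Ryr1 had 5 probes, Atp2a2 had 4, Jph2 had 3, Jph1 had 2, and Casq1, Casq2, Atp2a1, Cacng1 and Trdn had 1 each.

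In a muscle fibre, an action potential travels down the T-tubules and is sensed by a voltage-gated calcium channel, which opens the ryanodine receptor in the facing membrane of the sarcoplasmic reticulum. Calcium held inside by calsequestrin then flows out and triggers contraction, and pumps of the SERCA family return it to the store. Triadin ties calsequestrin to the release channel, and junctophilins hold the membranes of the triad together.

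RNA came from C2C12 myotubes, multinucleated muscle cells obtained by fusion of an immortalised mouse myoblast line, kept in medium with 2% horse serum and measured on Illumina mouse bead arrays. One set received 1 uM dexamethasone (Dex, a synthetic glucocorticoid) for 6 h (4 arrays) and was set against 0.01% ethanol by volume for 6 h (4 arrays). The other set received Dex for 24 h (5 arrays) and was set against ethanol for 24 h (5 arrays). The added volume was 0.01% for every array, Dex and ethanol alike. Whether the arrays of a group hold separate cultures is not stated in the labels, and the p-values cover only the spread among these arrays, possibly technical. In such bulk samples, fewer cells of a type and less RNA per cell cannot be told apart.

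Fkbp5, a classical glucocorticoid receptor target, was higher with Dex by 3.93 on the log2 scale at 6 h and by 3.40 at 24 h (limma adjusted p = 1.02e-21 and 1.09e-21). Of 11 myotube markers 10 were measured, and their summed intensity overlapped between Dex and ethanol at both times (97032 to 109438 with Dex against 97502 to 114593 with ethanol at 24 h). Single markers went both ways at 24 h: Ckm (0.30) and Actn2 (0.45) were higher, and Myog (-0.32) and Neb (-0.25) were lower (limma adjusted p = 0.0124, 0.0382, 0.0117 and 0.0288). At 24 h the summed intensity of 6 fibroblast markers was 10979 to 12496 with Dex and 13508 to 15805 with ethanol, with no overlap. Most of that sum was Dcn (9910 with Dex, 12500 with ethanol). Of the 6, Col1a1, Col3a1, Dcn and Lum were lower at 24 h, while Pdgfra (0.60) and Thy1 (0.21) were higher (limma adjusted p = 1.41e-05 and 0.0242). The sum of 6 cardiac muscle markers did not overlap at either time. It was 636.4 to 675.9 with Dex and 689.9 to 715.1 with ethanol at 6 h, where none of the 6 passed. At 24 h it was 524.5 to 536.2 with Dex and 568.1 to 585.9 with ethanol. Nppb (-0.35) and Tnni3 (-0.23) were lower at 24 h (limma adjusted p = 0.00394 and 0.0318), while Myh6 had 0.17 (adjusted p = 0.146). Of these 6, Nppa, Myl7 and Ryr2 had means below the array median in both groups at 24 h. The 5 measured markers of proliferating myoblasts summed to 899.0 to 1086 with Dex and 765.8 to 914.1 with ethanol at 24 h. Cdk1 (0.43) and Pcna (0.24) were higher at 24 h (limma adjusted p = 0.000398 and 0.0216). Top2a (-0.19), Pax7 (-0.10) and Myf5 (0.06) did not pass. At 6 h Myf5 was higher (0.33, adjusted p = 0.02). The 5 measured adipocyte markers all read below the array median. The part of these other cell types in the results below was not tested.

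Array medians were 99.8 to 100.4 at 6 h and 85.2 to 86.8 at 24 h, so each time has its own scale and levels were compared only within a time. Deviations from the group means filled fewer directions than the arrays allow: 1 of 6 directions at 6 h and 3 of 8 at 24 h each held under 0.001% of the spread of bright probes. The test therefore counts more independent residuals than the values hold. Each call was repeated in a fit with those directions as covariates, which leaves the fold changes as they are and widens their errors, and confidence intervals are given from that fit. At 24 h the arrays numbered 1 of the Dex and ethanol groups deviated from their group means in opposite directions (correlation -0.914 over all probes). Ethanol array 4 at 24 h had the lowest value of its group in 12 of the 16 member probes that read above the array median in all 4 groups. Its mean log2 deviation over those 16 probes was -0.17, against -0.0043 over all 18040 such probes. At the other end, ethanol array 5 at 24 h had the highest value of its group in 11 of the 16. Its mean log2 deviation over them was 0.13, against 2e-04 over all 18040.

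Dex changed few of these probes. At 6 h, 1 of 19 probes passed the test (limma, Benjamini-Hochberg adjusted p under 0.05 over all probes), a lower one, where 6.26% of all probes passed (2.98% higher and 3.28% lower). At 24 h, 3 of 19 passed, 1 higher and 2 lower, where 12.6% of all probes passed (6.43% higher and 6.22% lower). The counts are thus near the background at both times. The covariate fit gave the same counts of 1 and 3, where 3.04% and 6.28% of all probes passed. The median log2 fold change over the 19 probes was 0.0082 at 6 h and -0.05 at 24 h, against -4e-04 and -0.002 over all probes. In 16 of 19 probes the mean of each group lay above the array median; 1 of these passed at 6 h and 3 at 24 h, where 12.6% and 21.5% of equally bright probes passed. The genes behind the calls were Casq2, which was higher at 24 h, and Jph2, which was lower at 6 h by 1 probe and at 24 h by 2.

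The 250 bases upstream of the annotated start are printed for Casq2 and Jph2, whose probes passed the test, and for Casq1, the other calsequestrin (RefSeq, GRCm38.p6, each 5′ to 3′ on the gene's own strand; the first of 2 entries for Jph2). Casq2 lies at chr3:102086165-102086414 on the plus strand, Casq1 at chr1:172219896-172220145 on the minus strand, and Jph2 at chr2:163397994-163398243 on the minus strand. Capitals mark E-boxes (CANNTG), the sites that myogenic factors such as MyoD bind, and matches to the consensus of MEF2, a partner of those factors in muscle.
Casq2: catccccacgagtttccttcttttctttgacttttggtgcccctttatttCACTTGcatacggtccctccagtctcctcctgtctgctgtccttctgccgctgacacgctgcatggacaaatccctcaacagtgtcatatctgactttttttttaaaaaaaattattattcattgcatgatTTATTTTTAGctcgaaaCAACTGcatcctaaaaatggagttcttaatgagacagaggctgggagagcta
Casq1: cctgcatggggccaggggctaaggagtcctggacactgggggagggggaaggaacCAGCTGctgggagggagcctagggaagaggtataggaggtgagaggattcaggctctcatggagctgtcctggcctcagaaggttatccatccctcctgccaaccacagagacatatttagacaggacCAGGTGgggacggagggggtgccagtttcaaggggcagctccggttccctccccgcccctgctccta
Jph2: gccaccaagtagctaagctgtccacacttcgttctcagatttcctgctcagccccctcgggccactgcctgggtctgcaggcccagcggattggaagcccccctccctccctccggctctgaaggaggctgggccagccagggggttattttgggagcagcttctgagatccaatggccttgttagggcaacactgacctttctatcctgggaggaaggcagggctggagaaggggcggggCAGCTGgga
Both strands were searched. Casq2 held a match to the MEF2 consensus, TTATTTTTAG, beginning 69 bases upstream of the start, as did 2.92% of 32851 mouse promoter windows of this length. Its E-boxes began 200 and 52 bases upstream, those of Casq1 195 and 67 bases upstream, and that of Jph2 9 bases upstream. Such a box is common, with 66.2% of windows holding at least 1. The glucocorticoid receptor half-site AGAACA (16.1% of windows) and the core ACANNNTGT (5.84%) were not found in these 3 windows. A match or its absence in a window this short is a description of letters only.

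Casq2 encodes the calsequestrin of cardiac and slow muscle, the protein that buffers calcium inside the store. After 24 h its probe read 5046.2, 4485.7, 4271, 4942.2 and 4551 on the Dex arrays. The ethanol arrays read 3087.8, 3294.4, 3758.6, 2855.5 and 3790.4. All 5 Dex arrays lay above all 5 ethanol arrays. Means were 4659 ± 325 with Dex and 3357 ± 411 with ethanol (SD, n = 5 each). The log2 fold change was 0.48 ± 0.09 (SE), or 1.39-fold (limma adjusted p = 0.000684, and 0.00278 with the covariates). The 95% interval of the log2 fold change was 0.28 to 0.68. It was 0.42 without ethanol array 4 (adjusted p = 0.00324) and 0.42 without both arrays numbered 1 (adjusted p = 0.00825).

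At 6 h the Casq2 probe read 5554.9, 4324.8, 4990.5 and 4678.2 with Dex, and 4568.1, 4958.5, 5924 and 6290.5 with ethanol. The groups overlapped, and the log2 fold change was -0.15 ± 0.10 (SE; limma adjusted p = 0.453). The Dex effect at 24 h exceeded that at 6 h by 0.63 on the log2 scale (SE 0.13, 95% interval 0.32 to 0.93; interaction adjusted p = 0.00915, and 0.0404 with the covariates). Casq2 was the 1 member probe of 19 whose Dex effect differed between the times by this test, where 3.7% of all probes passed, 2% higher and 1.7% lower (0.819% with the covariates).

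Casq1, the calsequestrin of fast muscle, had a value at 24 h on the other side of 0 that missed the threshold. Its probe read 867, 1208.2, 903.3, 1117.9 and 1548.7 with Dex, and 1994.6, 1592.1, 1496.7, 912.1 and 1994.8 with ethanol. The groups overlapped because ethanol array 4 was low and Dex array 5 was high. Means were 1129 ± 275 with Dex and 1598 ± 446 with ethanol (SD, n = 5 each). The log2 fold change was -0.48 ± 0.18 (SE; 95% interval -0.85 to -0.11, limma adjusted p = 0.0738). Its side of the threshold rests on single arrays. Leaving out 1 array at a time gave -0.67 to -0.39, with limma adjusted p up to 0.188. Of 18 such fits, 16 did not pass. Only 10 of the 18 left out an array of 24 h, and the fits that passed, given next, were among these. The others leave the fold change at 24 h as it is. Without ethanol array 4 the log2 fold change was -0.67 (adjusted p = 0.0048), and without Dex array 5 it was -0.60 (adjusted p = 0.0295). Without both arrays numbered 1 it was -0.30 (adjusted p = 0.341).

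At 6 h the Casq1 probe read 1479.4, 1217.6, 1191.1 and 1062 with Dex, and 1248.9, 1137, 899.4 and 766.7 with ethanol. The groups overlapped, and the log2 fold change was 0.30 ± 0.20 (SE; limma adjusted p = 0.428). The difference between the Dex effects at 24 h and at 6 h was -0.78 (SE 0.26, interaction adjusted p = 0.0944), and -0.97 without ethanol array 4 at 24 h (adjusted p = 0.0151). Leaving out 1 array at a time gave -0.97 to -0.66 (interaction adjusted p up to 0.186), and 17 of 18 such fits did not pass.

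**Figure D1:**
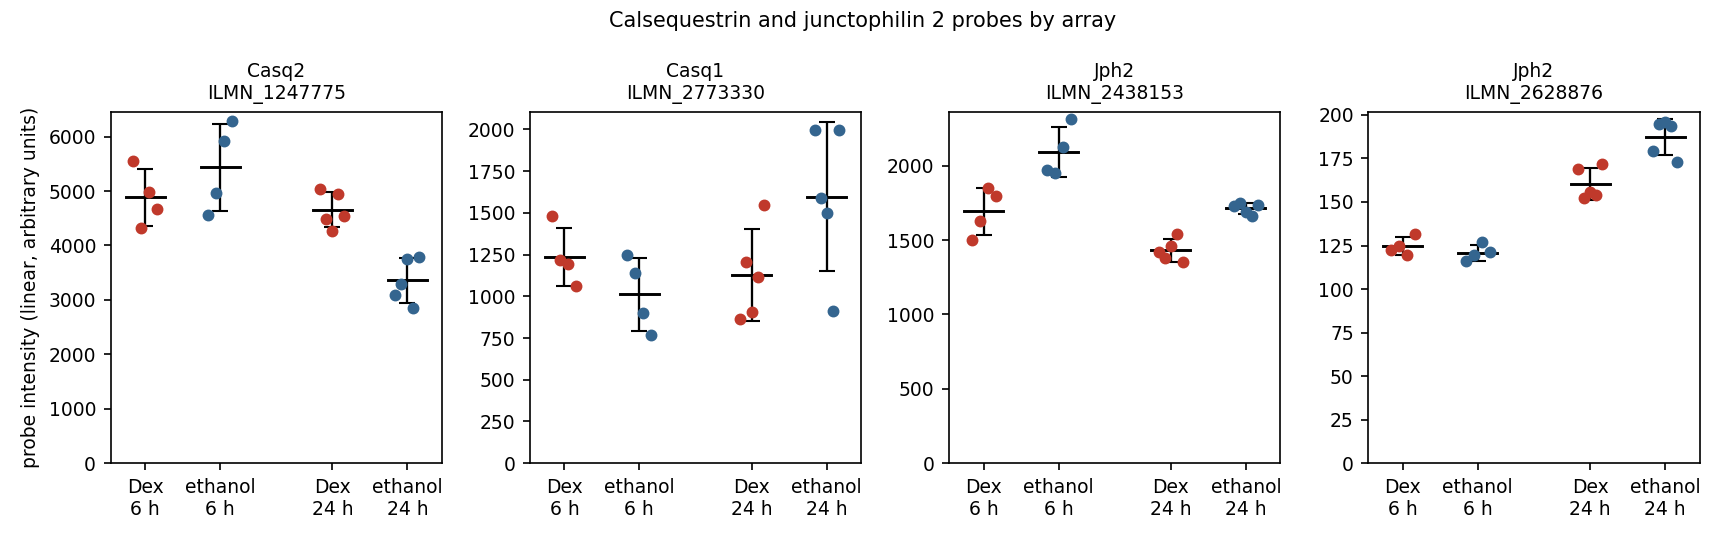
Probe intensity (linear, arbitrary units) on every array for Casq2, Casq1 and the 2 Jph2 probes that passed the test at 24 h, with Dex left of ethanol at each time. Points are arrays, horizontal lines are group means and bars are SD; the Casq2 points with Dex at 24 h all lie above those with ethanol, and those of both Jph2 probes all lie below.

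Because a ratio of 2 probes on 1 array removes differences in scale between arrays, the log2 ratio of Casq2 to Casq1 was compared as well. Only its change is read, since the level of a ratio between different probes has no meaning of its own. At 24 h it was 2.07 ± 0.37 with Dex (range 1.56 to 2.54) and 1.12 ± 0.39 with ethanol (range 0.63 to 1.65), a difference of 0.96 (SD, n = 5 each). The ranges overlapped by a single pair of arrays. The two-sided exact permutation p was 0.0159, where 0.00794 is the smallest possible, and 0.0636 after adjustment over 4 ratio tests, which misses the threshold. Without both arrays numbered 1 the difference was 0.72 (adjusted p = 0.228, exact permutation). That leaves 4 against 4 arrays, where the smallest possible exact permutation p is 0.0286 before adjustment. It could thus hardly pass, and its p-value says little. At 6 h the ratio was 1.99 ± 0.14 with Dex and 2.44 ± 0.53 with ethanol (SD, n = 4 each), a difference of -0.45 (exact permutation p = 0.2, adjusted p = 0.4).

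**Figure D2:**
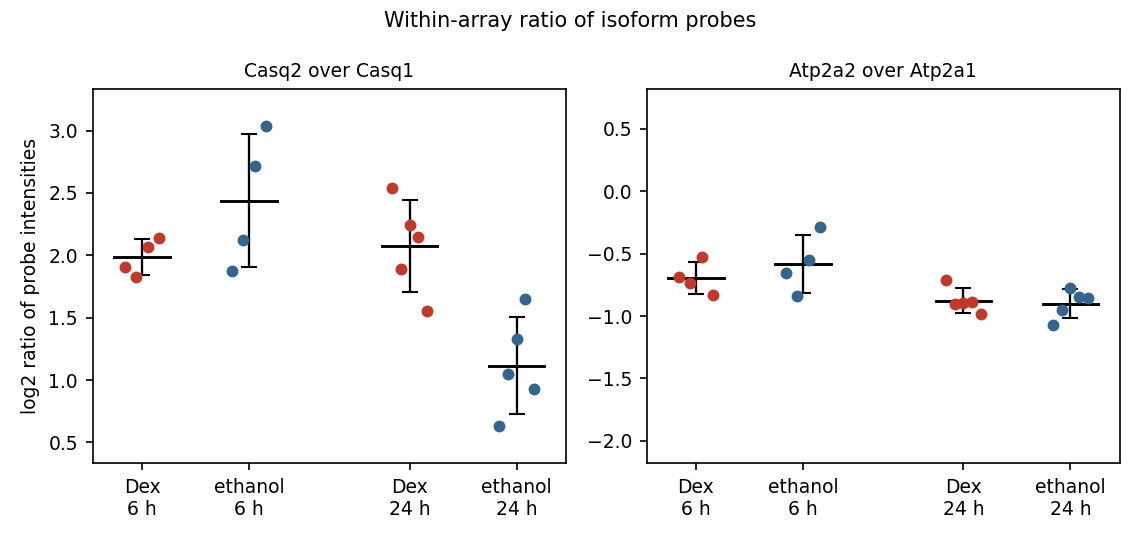
The log2 ratio of Casq2 to Casq1 and of Atp2a2 to Atp2a1 on each array, with Dex left of ethanol at 6 h and at 24 h. Points are arrays, horizontal lines are group means and bars are SD; the calsequestrin ratio at 24 h averaged 2.07 with Dex and 1.12 with ethanol, while the pump ratio averaged -0.88 with Dex and -0.90 with ethanol.

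Jph2 encodes junctophilin 2, which anchors the sarcoplasmic reticulum to the surface membrane and its T-tubules. Its brightest probe, ILMN_2438153, read 1504.3, 1628.7, 1849.1 and 1797.8 with Dex at 6 h, and 1972.2, 1952, 2123.2 and 2316.9 with ethanol. All 4 Dex arrays lay below all 4 ethanol arrays. Means were 1695 ± 158 with Dex and 2091 ± 169 with ethanol (SD, n = 4 each). The log2 fold change was -0.30 ± 0.07 (SE; 95% interval -0.47 to -0.14, limma adjusted p = 0.00553, and 0.0373 with the covariates). This call at 6 h was lost when only the 8 arrays of that time were fitted (log2 fold change -0.30, adjusted p = 0.0623), after background subtraction (-0.31, adjusted p = 0.0514), and for the mean of the 3 Jph2 probes (log2 fold change -0.10, adjusted p = 0.132).

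After 24 h the same probe read 1421.7, 1377, 1462.8, 1542.6 and 1350.3 with Dex. With ethanol it read 1727.5, 1752.6, 1691.9, 1660 and 1737.3. The groups again did not overlap, at 1431 ± 75.8 with Dex and 1714 ± 37.5 with ethanol (SD, n = 5 each). The log2 fold change was -0.26 (SE 0.06, 95% interval -0.41 to -0.11, limma adjusted p = 0.0048, and 0.0298 with the covariates). The Dex effect of this probe did not pass the test of a difference between times (0.04, SE 0.09, interaction adjusted p = 0.847, 95% interval -0.18 to 0.27).

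A dimmer Jph2 probe, ILMN_2628876, read 168.9, 152.3, 155.5, 154.1 and 172.1 with Dex at 24 h. With ethanol it read 179.1, 194.7, 196, 193.9 and 173.2. Every Dex array lay below every ethanol array, although the nearest pair was close. Its log2 fold change was -0.22 (SE 0.05, limma adjusted p = 0.00603, and 0.0457 with the covariates), against 0.05 at 6 h (adjusted p = 0.746). The third Jph2 probe, ILMN_2628875, had log2 fold changes of -0.04 at 6 h and -0.14 at 24 h (adjusted p = 0.855 and 0.208). For the mean of the 3 probes, tested over genes, the value at 24 h was -0.21 (adjusted p = 0.000329).

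Jph1, the junctophilin that predominates in skeletal muscle, gave no call in limma at either time, nor an unadjusted p under 0.05. Its brighter probe averaged 3319 ± 258 with Dex and 3177 ± 102 with ethanol at 6 h (SD, n = 4 each), and 1943 ± 93.5 with Dex and 1911 ± 142 with ethanol at 24 h (SD, n = 5 each). The 95% interval of its log2 fold change at 24 h was -0.12 to 0.17, around an estimate of 0.03. The other Jph1 probe had -0.02 at 6 h and -0.07 at 24 h.

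Ryr1 encodes the calcium release channel itself, and none of its 5 probes passed in limma at either time (1 of 5 at an unadjusted p under 0.05 at each time). The brightest averaged 4569 ± 387 with Dex and 4648 ± 366 with ethanol at 6 h (SD, n = 4 each). At 24 h it read 2901.9, 2626.7, 2657.1, 3067.5 and 2754.9 with Dex, and 2872.4, 3013.3, 3130.3, 2460.5 and 3318.2 with ethanol. The groups overlapped, with a log2 fold change of -0.07 (95% interval -0.25 to 0.10, limma adjusted p = 0.559). Log2 fold changes of the 5 probes ran between -0.11 and 0.16 at 6 h; those at 24 h ran between -0.11 and 0.04. Trdn, the triadin gene, was represented by a probe whose group means were at or below the array median in all 4 groups. It averaged 85.5 ± 13.7 with Dex and 73.6 ± 4.65 with ethanol at 24 h (SD, n = 5 each), with a log2 fold change of 0.20 (adjusted p = 0.0972).

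Atp2a1 encodes SERCA1, the pump of fast fibres, and Atp2a2 encodes SERCA2, that of slow and cardiac muscle. At 6 h the Atp2a1 probe read 36723.3, 34956.1, 35009.9 and 35119.7 with Dex, and 34247.5, 32862.2, 33161.5 and 30456.9 with ethanol. The 4 Dex arrays lay above the 4 ethanol arrays, yet the log2 fold change of 0.12 did not pass (SE 0.07, 95% interval -0.06 to 0.30, limma adjusted p = 0.404). Among all probes 9.24% had groups that did not overlap at 6 h, and 13.7% at 24 h; among the members these were 2 of 19 at 6 h and 4 of 19 at 24 h. At 24 h Atp2a1 averaged 26086 ± 1086 with Dex and 24498 ± 3004 with ethanol (SD, n = 5 each), and the groups overlapped (log2 fold change 0.10, adjusted p = 0.36).

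The brightest Atp2a2 probe averaged 21970 ± 1998 with Dex and 21912 ± 2749 with ethanol at 6 h (SD, n = 4 each). At 24 h it averaged 14230 ± 1018 with Dex and 13130 ± 1703 with ethanol (SD, n = 5 each). Its log2 fold changes were 0.01 and 0.12 (limma adjusted p = 0.977 and 0.378). All 4 Atp2a2 probes had values between -0.01 and 0.15 at 6 h; those at 24 h lay between 0.04 and 0.14. None passed in limma (0 at 6 h and 1 at 24 h at an unadjusted p under 0.05). The dimmest read below the array median throughout, with its 5 Dex arrays above its 5 ethanol arrays at 24 h (78.3 ± 2.42 with Dex, 71.9 ± 1.25 with ethanol; adjusted p = 0.11). The log2 ratio of the brightest Atp2a2 probe to Atp2a1 differed between Dex and ethanol by -0.11 at 6 h and by 0.02 at 24 h (exact permutation p = 0.457 and 0.73).

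Cacng1, the gamma subunit of the skeletal voltage sensor, averaged 5375 ± 603 with Dex and 5903 ± 934 with ethanol at 6 h (SD, n = 4 each). At 24 h it averaged 3344 ± 168 with Dex and 3539 ± 400 with ethanol (SD, n = 5 each). The log2 fold changes of -0.13 and -0.08 did not pass (limma adjusted p = 0.516 and 0.624). Over all members, the 95% interval lay within a 1.5-fold change in either direction for 18 of 19 probes at 6 h and 17 of 19 at 24 h. The probe outside it at 6 h was Casq1, and those at 24 h were Casq1 and Casq2.

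**Figure D3:**
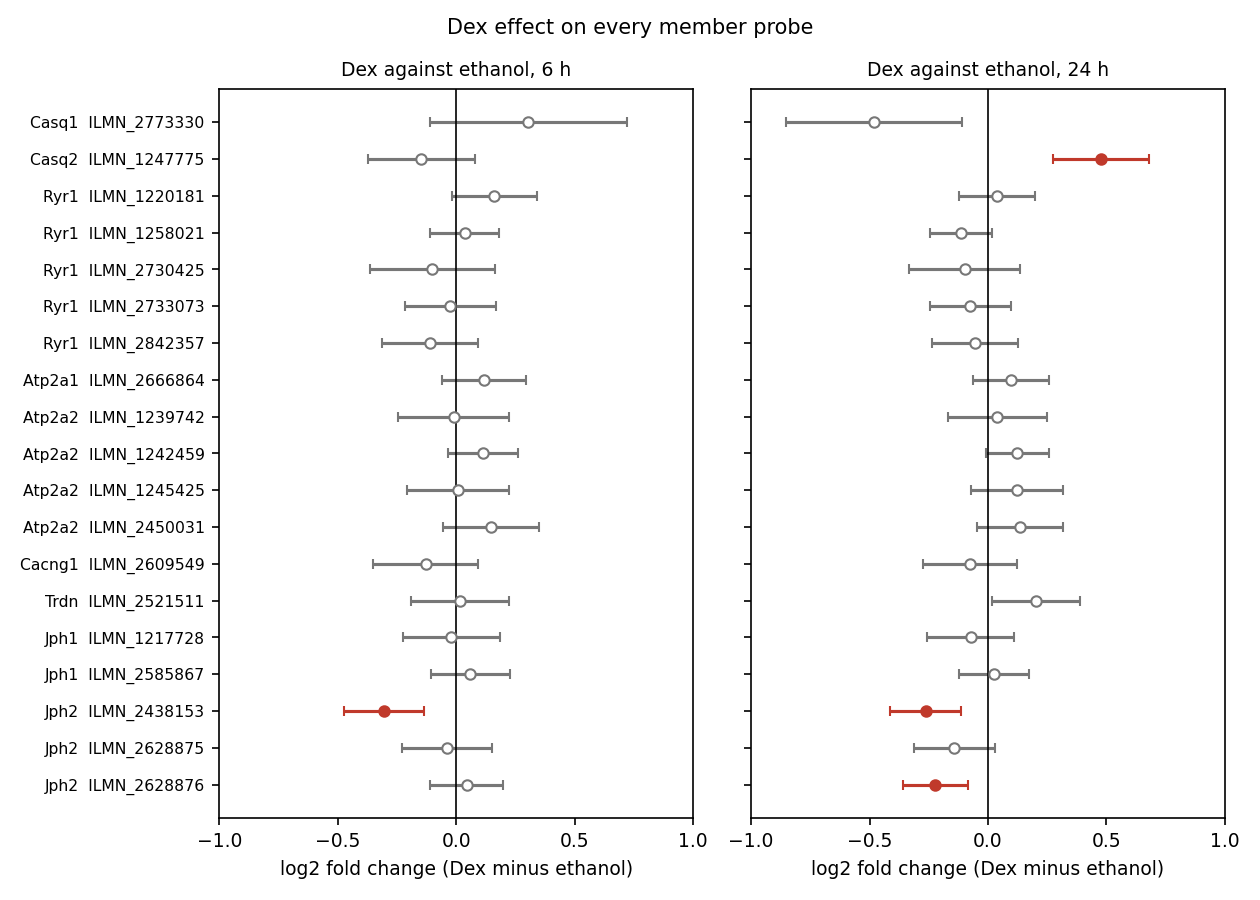
Log2 fold change of each of the 19 probes, Dex minus ethanol, at 6 h and at 24 h. Bars are 95% intervals of the fit with the empty directions as covariates and filled points passed the test; Casq2 at 24 h (0.48) stands right of 0. The Jph2 probe ILMN_2438153 stands left at both times (-0.30 and -0.26) and ILMN_2628876 stands left at 24 h (-0.22).

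**Figure D4:**
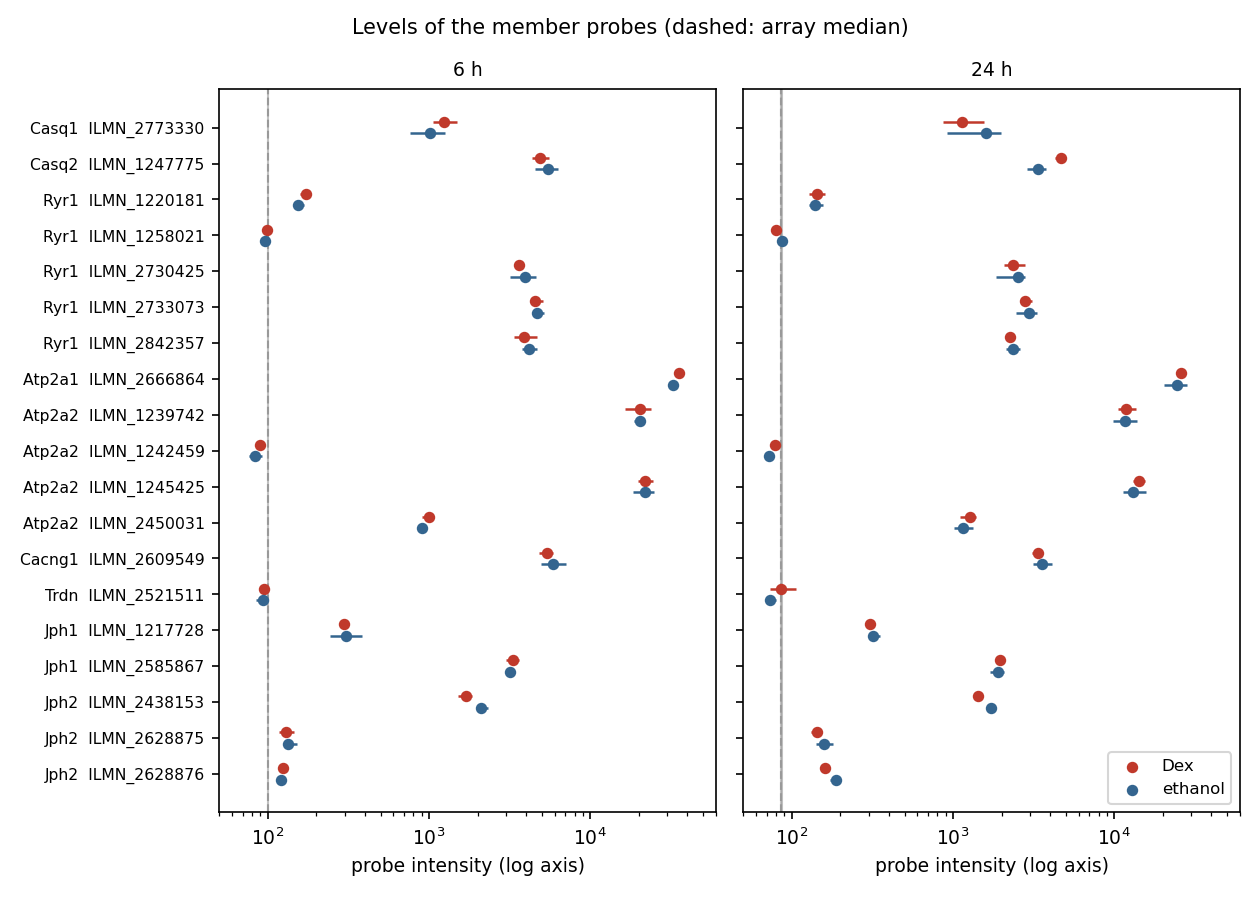
Intensity of the 19 probes on a log axis, with points for group means, bars from the lowest to the highest array, Dex above ethanol within each probe, and dashed lines at the array medians. Each time has its own scale and different probes are not comparable; Dex and ethanol lie close together for the pump and release channel probes, and apart for Casq2 at 24 h.

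The genes whose array-by-array pattern lay nearest to that of Casq2 were ranked by the root mean square difference over the 18 arrays, in log2 values centred on the ethanol mean of each time. Igdcc4 was nearest, at 0.117, followed by Smpd2 (0.127), Afap1l1 (0.131), Mavs (0.133) and Sctr (0.144), where the median over 19048 genes was 0.322. Their log2 fold changes at 24 h were 0.43, 0.54, 0.52, 0.39 and 0.33, against -0.13, -0.06, -0.33, -0.11 and -0.09 at 6 h. They were chosen by this likeness, so it is a description.

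Other genes of calcium handling were taken from 8 lists of 80 genes in all, of which 73 were measured, each by its brightest probe. At 6 h, 7 were higher and 2 lower, together 12.3%, where 8.35% of all genes passed (4.31% higher and 4.04% lower). At 24 h, 10 were higher and 3 lower, together 17.8%, where 15.8% of all genes passed (8.05% higher and 7.73% lower). The medians of the log2 fold changes were 0.02 at 6 h and 0.01 at 24 h, against 0.003 and -1e-04 over all genes. With the covariates 3 genes passed at 6 h, where 4.34% of all genes did, and 6 passed at 24 h, where 8.58% did. Leaving out arrays moved the counts: 5 passed at 6 h without Dex array 3, and 8 at 24 h without ethanol array 2 or without Dex array 2. Without both arrays numbered 1, 8 passed at 24 h. The share of all genes called in these fits was not counted, so the counts cannot be set against a background there.

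Among 13 measured partners of the release channel, 3 were higher and 1 lower at 6 h, and 4 were higher at 24 h. This was 30.8% of the list at each time, where 8.35% and 15.8% of all genes passed. With the covariates 2 of the 13 passed at each time, where 4.34% and 8.58% of all genes did. The same shares of all genes apply to the lists below. No test of a list as a whole was run. Tmem38b, which encodes a cation channel of the store membrane (TRIC-B), averaged 7660 ± 510 with Dex and 5240 ± 693 with ethanol at 24 h (SD, n = 5 each). It rose by 0.56 at 24 h (SE 0.08, limma adjusted p = 2.11e-05), and its other probe by 0.53. At 6 h it rose by 0.32 (adjusted p = 0.0263, but 0.0856 with the covariates). Asph, whose locus also encodes junctin and junctate of the sarcoplasmic reticulum, rose by 0.71 at 6 h and 0.80 at 24 h on its brightest probe (adjusted p = 9.86e-05 and 2.54e-06). Intensities of that probe at 24 h were 460 ± 53.7 with Dex and 266 ± 44.2 with ethanol (SD, n = 5 each). Asph had 14 probes of which most did not pass, and the log2 fold change of their mean was 0.12 at 6 h and 0.11 at 24 h. The annotation here does not say which product of the locus a probe reads.

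Calm2, a calmodulin gene, fell by 0.38 at 6 h (SE 0.06, limma adjusted p = 0.000275), and had -0.13 at 24 h (adjusted p = 0.145). Ryr3, a ryanodine receptor of developing muscle, rose by 0.34 at 6 h on its brightest probe (limma adjusted p = 0.0326, but 0.0932 with the covariates). The mean of its 4 probes had 0.07. Its value at 24 h was 0.03 (adjusted p = 0.866). Hrc, a histidine-rich calcium-binding protein of the store, had 0.30 at 24 h (adjusted p = 0.0309), and Selenon, a selenoprotein of its membrane, had 0.21 (adjusted p = 0.0235). Both lost their calls with the covariates (0.0774 and 0.0922).

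Of 5 measured pump regulators, 1 was higher at 24 h and none was called by limma at 6 h, also at an unadjusted p under 0.05. This was Sln, sarcolipin, an inhibitor of SERCA, at 95.7 with Dex and 82.3 with ethanol, which is dim (array medians 85.2 to 86.8; log2 fold change 0.21, limma adjusted p = 0.0206, but 0.0842 with the covariates). At 6 h Sln had -0.06 (adjusted p = 0.723). The probe of Pln, phospholamban, was also dim, and had -0.07 at 6 h and 0.06 at 24 h (adjusted p = 0.632 and 0.581).

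Of 8 voltage sensor genes, 1 was higher at 24 h and none was called by limma at 6 h (2 at an unadjusted p under 0.05). Stac3, an adaptor needed to couple the voltage sensor to the release channel, averaged 502 ± 46.5 with Dex and 401 ± 43.8 with ethanol at 24 h (SD, n = 5 each). It rose by 0.33 (SE 0.07, limma adjusted p = 0.0038, and 0.0177 with the covariates), and had -0.13 at 6 h (adjusted p = 0.394). The difference between the Dex effects was 0.46 (interaction adjusted p = 0.0188, but 0.0824 with the covariates). The channel's beta subunit gene Cacnb1 had -0.02 and 0.04 (adjusted p = 0.953 and 0.811). Of 9 triad and T-tubule genes, 1 was lower at 24 h: Bin1, which shapes T-tubule membranes, at -0.15 (adjusted p = 0.046, but 0.19 with the covariates, and 0.02 for the mean of its probes).

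Of 8 genes of store-operated entry, which refills the store from outside the cell, 1 was higher at each time. Stim2, a calcium sensor of the store, averaged 823 ± 70.1 with Dex and 621 ± 48.7 with ethanol at 6 h (SD, n = 4 each). It rose by 0.41 (SE 0.07, limma adjusted p = 0.000627), but its other probe had -0.05, and the mean of both did not pass (0.18, adjusted p = 0.195). Orai1, the channel pore that these sensors open, averaged 903 ± 56.8 with Dex and 691 ± 19.9 with ethanol at 24 h (SD, n = 5 each). It rose by 0.38 at 24 h (SE 0.06, adjusted p = 0.000173), and its difference between times was 0.38 (interaction adjusted p = 0.0229, but 0.115 with the covariates). Stim1 had 0.04 at 6 h and 0.16 at 24 h (adjusted p = 0.811 and 0.126).

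In the remaining 3 lists, 4 genes passed at 6 h and 5 at 24 h. Micu2, a regulator of mitochondrial calcium uptake, fell by 0.28 at 6 h (limma adjusted p = 0.00749), the 1 call among 10 genes of extrusion and buffering. Itpr2, an IP3 receptor, fell by 0.27 at 24 h (adjusted p = 0.0131), and the luminal protein gene Rcn2, read by a dim probe, had 0.17 (adjusted p = 0.0492). Among 12 genes of calcium-dependent signalling, the kinase gene Camk2d (0.28), the calcineurin regulator Rcan2 (0.32) and the transcription factor gene Nfatc1 (0.26) were higher at 6 h. At 24 h Camk2b (0.28) and Rcan1 (0.19) were higher and Camk2g (-0.23) was lower. Of these 9 calls, those of Itpr2 and Camk2b were kept with the covariates (adjusted p = 0.0497 and 0.0455). For the mean of a gene's probes, Camk2d, Rcan2, Nfatc1, Itpr2 and Rcn2 did not pass, nor did Sln above. In the test of a difference between times over the 73 genes, Stac3 and Orai1 were higher and Trpc4, a cation channel gene with a dim probe, was lower. They make 4.11%, where 4.69% of all genes passed (2.35% in each direction). With the covariates none of the 73 passed this test by limma (15 at an unadjusted p under 0.05), where 1.19% of all genes did.

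**Figure D5:**
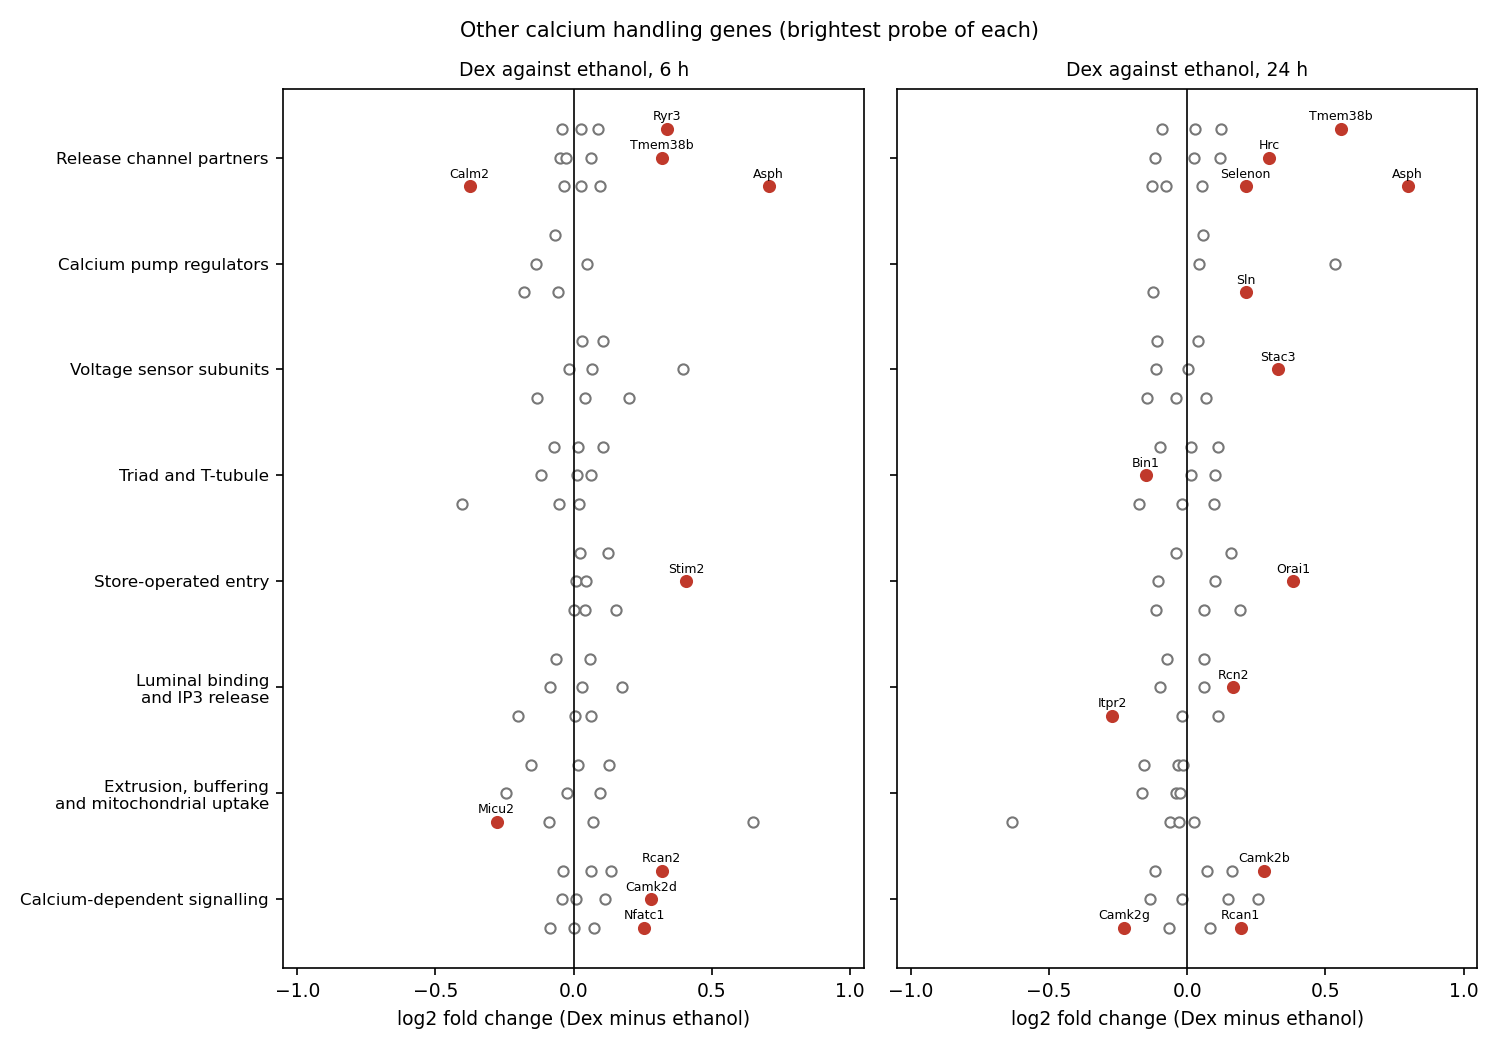
Log2 fold change, Dex minus ethanol, of the 73 other calcium handling genes at 6 h and at 24 h, by list. Filled points with names passed the test; Asph stands farthest right at both times, and most open points lie close to 0.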

How the data were processed

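The deposited values are linear probe intensities. The authors had pre-processed them in lumi, per the submitters' processing notes. Its version, background step and normalization: not given in the sources used here. Triplicates are named in the design, but each group has 4 or 5 numbered arrays in the labels, and all 18 were used. The log2 of the deposited intensities was taken (pseudocount 0), although log2 values had been assumed, and 4 group means were fitted with limma 3.58.1 in R 4.3.3, with Benjamini-Hochberg adjustment over 45281 probes and calls under 0.05. The code was tested on simulated data.

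The number of arrays limits the precision. Of the probes, 34885 had 1 gene symbol, 18 several and 10378 none in the platform annotation; 34807 symbols were updated through RefSeq (GRCm38.p6). Promoter windows were present for 6 of the 10 genes. Same-numbered Dex and ethanol arrays showed no positive pairing (correlations of deviations -0.914 to 0.17), and the main fit models no link between them. The members, lists and tests were chosen with earlier results of these data known.

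Named genes were all member probes, the called genes of each list (up to 4 per list and time), and Sln, Pln, Ryr3, Cacnb1, Stac3 and Stim1 whatever their values. Alternatives covered the empty residual directions, arrays fitted, quantile normalization, background, pseudocount, dim probes, probe summaries, array weights, a replicate block and leaving out arrays.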

Additional observations from a re-analysis of the deposited data

Results flagged for a closer look

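Casq2 was flagged because its Dex effect differed between the times by the test of the difference itself. The value was 0.63 (log2 effect at 24 h minus that at 6 h), with limma adjusted p = 0.00915, and 0.0404 with the covariates. By the same test the difference was 0.46 for Stac3 (adjusted p = 0.0188), 0.38 for Orai1 (adjusted p = 0.0229) and -0.27 for Trpc4 (adjusted p = 0.0462), and these 3 calls were lost with the covariates.

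In 3 of 76 groups of a member probe, 1 array stood apart from the others by Dixon's ratio of gap to range at its 95% level, and chance flags about 5% of groups. For the Ryr1 probe ILMN_2730425 the lowest ethanol array at 24 h, at 1856.1, had a ratio of 0.738. It was ethanol array 4, the array that was also lowest for 12 of 16 bright member probes. For Atp2a1 the highest Dex array at 6 h, at 36723.3, had a ratio of 0.905. For the dim Atp2a2 probe ILMN_1242459 the lowest Dex array at 6 h, at 85.8, had a ratio of 0.915. The causes were not tested.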

How the results depend on the processing

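Counts of member probes called were 1 at 6 h, 3 at 24 h and 1 for the difference between times. At 6 h the count was 0 with the arrays of that time only, 0 after background subtraction (each array's 1st percentile, with 16 added back) and 0 for the mean of the probes of a gene (by limma, with 4, 2 and 1 at an unadjusted p under 0.05), and it ran from 1 to 1 over the fits that each left out 1 array. At 24 h it was 6 with array weights, and ran from 3 to 5 when 1 array was left out, the 5 being without Dex array 5. For the difference it was 2 with a pseudocount of 50, 2 without dim probes, 2 with array weights and 2 with the replicate block, and ran from 1 to 2 when 1 array was left out. Except for the covariate fit, the share of all probes called in these alternatives was not counted. The member counts thus cannot be set against a background there. With array weights the calls among the 73 pathway genes at 24 h also went from 13 to 24.

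Counts of the 73 pathway genes called were 9, 13 and 3. With the covariates they were 3, 6 and 0, after background subtraction 3, 7 and 1, and for the mean of the probes 4 at 6 h. At 24 h array weights gave 24, the replicate block 8, and leaving out both arrays numbered 1 gave 8, with 1 for the difference. Leaving out 1 array gave 5 to 10 at 6 h, 8 to 15 at 24 h and 2 to 4 for the difference. Except for the covariate fit, the share of all genes called was not counted here either. Over all probes, the covariates gave 1378 calls, against 2836 without them, at 6 h, 2842 against 5726 at 24 h, and 371 against 1675 for the difference.

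The deviations of same-numbered Dex and ethanol arrays correlated at 0.17, 0.102, -0.109 and -0.0127 at 6 h. At 24 h they correlated at -0.914, -0.755, -0.744, -0.311 and -0.181. The replicate number thus gave no positive pairing. At 24 h the arrays numbered 1 to 3 deviated strongly in opposite directions, a link that the main fit does not model. Casq1 at 24 h passed with the block (-0.48, limma adjusted p = 0.0116) and with array weights. It stayed uncalled in 9 of 11 alternatives other than leaving out 1 array, and its difference between times in 9 of 10. Casq2 at 24 h passed in every alternative run, with log2 fold changes from 0.42 to 0.52 and adjusted p up to 0.00825. The 4 ratio tests stayed on their side of the threshold in the alternatives run. At 6 h the smallest possible exact permutation p is 0.0286 before adjustment over 4 tests. Those at 6 h could thus hardly pass, and their staying uncalled says little. The same holds at 24 h without both arrays numbered 1, where 4 arrays per group are left. The uncalled change of the log2 ratio of Atp2a2 to Atp2a1 at 24 h turned to -0.0612 without both arrays numbered 1, and ran from -0.019 to 0.0552 when 1 array was left out (-0.0182 without Dex array 1, -0.019 without ethanol array 1). The fits for single genes that left out 1 array include arrays of the other time, which leaves a fold change within a time as it is. The share kept is therefore no measure of stability. Of 921 values of single genes under alternatives, 768 kept direction and side of the threshold, 146 lost the call, 6 gained it and 1 turned: Bin1 at 24 h, 0.0242 for the mean of its probes. The causes of these changes were not tested.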
